A study of Homo sapiens with 8 samples.

Results

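The 10 genes described here encode enzymes that make, elongate, desaturate and activate long-chain fatty acids: ACLY, ACACA, FASN, SCD, FADS1, FADS2, ELOVL1, ELOVL5, ELOVL6 and ACSL3. They were taken by symbol from a table of 18133 genes, and all 10 were found and tested. The cells are DND41, a human leukemia line of T-cell origin (T-ALL), in which a short hairpin RNA (shRNA) was induced for 72 h with doxycycline. The groups compared were: 3 libraries with the SIRT1 hairpin sh1, 3 with the SIRT1 hairpin sh3 (letters A, B and C in each), and 2 with a control hairpin (letters A and C). All cells, controls included, received doxycycline and grew in the same medium with fetal serum, which itself supplies lipid. SIRT1 is a protein deacetylase that uses NAD, and the study asks what its loss changes in these leukemia cells.

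Fatty acid synthesis starts when ACLY splits cytosolic citrate into acetyl-CoA. ACACA, acetyl-CoA carboxylase, turns acetyl-CoA into malonyl-CoA, the committed step, and FASN joins these units into palmitate with NADPH as the reductant. ELOVL6 extends palmitate to stearate, SCD places the first double bond in stearate or palmitate, and FADS1 and FADS2 desaturate the polyunsaturated series that ELOVL5 elongates. ELOVL1 makes very long saturated chains, and ACSL3 couples free fatty acids to coenzyme A at the endoplasmic reticulum and on lipid droplets. Many of these genes are known targets of the sterol regulatory element binding proteins, encoded by SREBF1 and SREBF2. SREBF1 and SCD are also known targets of the liver X receptors, LXR.

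SIRT1 was at 1259, 1312 and 1329 normalized counts with sh1, 1099, 1217 and 1179 with sh3, and 1745 and 1920 in the controls (1919.5 before rounding). The hairpin libraries therefore lay below both controls, with a partial loss of SIRT1 messenger RNA: the log2 change was -0.49 ± 0.070 with sh1 (SE, limma adjusted p = 0.0029; -0.43 and 0.051 without control C) and -0.65 ± 0.070 with sh3 (adjusted p = 0.00014). Libraries summed to 33087820 to 34072666 normalized counts. The library sh3 C is placed with sh3 by its title and genotype but named a control in its description. It was kept with sh3, and the members called in each comparison with control were the same without it. Of 19 T-cell markers 17 were found, each with a mean of at least 10 normalized counts, and their summed level was 167827 to 168609 in the controls, 157693 to 162580 with sh1 and 150605 to 152463 with sh3. Defining adipocyte and liver genes were low, with means of 5.75 for ADIPOQ and 1.80 for ALB, but each list held 1 well-expressed gene: LIPE, a lipase gene, at 238, and TF, the transferrin gene, at 1110.02. The summed liver list (6 of 10 found) was 1107 to 1158 in the controls, 1065 to 1182 with sh1 and 1167 to 1215 with sh3, and the summed adipocyte list (7 of 10 found) was 223 to 290.6 with sh3, 247 to 322 with sh1 and 245 to 308 in the controls. The summed fibroblast list (9 of 12 found, led by PDGFRB) was 2522 to 2653 in the controls, 1853 to 1978 with sh1 and 2057 to 2442 with sh3, and the B-cell list (7 of 9 found, led by CD79A) was 25357 to 27109, 18985 to 20689.8 and 25496 to 26927. Whether these marker differences have a part in the results was not tested. In bulk RNA, fewer cells of a kind and less RNA per cell cannot be told apart. Nothing in the labels says that libraries of a group came from separate infections, so the p-values speak of how these cultures varied, and that variation may be technical.

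Promoters are shown for 3 members that stand for the patterns found: SCD, which was lower with both hairpins, ACSL3, called with sh1, and ELOVL5, which was higher with sh3. Each is the 250 bases before the RefSeq start, 5′ to 3′ on the gene's strand (build GRCh38.p14), with CCAAT boxes (CCAAT, or ATTGG on the other strand) and the E-box CACGTG in capitals.
SCD, chr10:100346983-100347232, plus strand: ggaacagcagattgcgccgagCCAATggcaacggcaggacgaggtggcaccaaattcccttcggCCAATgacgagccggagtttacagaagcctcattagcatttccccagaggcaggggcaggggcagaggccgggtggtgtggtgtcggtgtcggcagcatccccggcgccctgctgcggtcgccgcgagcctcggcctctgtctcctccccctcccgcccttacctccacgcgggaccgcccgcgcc
ACSL3, chr2:222860786-222861035, plus strand: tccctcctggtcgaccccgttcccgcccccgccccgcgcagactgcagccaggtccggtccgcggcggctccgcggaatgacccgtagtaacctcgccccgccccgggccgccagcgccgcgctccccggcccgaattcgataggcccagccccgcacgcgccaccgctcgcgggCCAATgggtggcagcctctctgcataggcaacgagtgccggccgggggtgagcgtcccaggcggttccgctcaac
ELOVL5, chr6:53348951-53349200, minus strand: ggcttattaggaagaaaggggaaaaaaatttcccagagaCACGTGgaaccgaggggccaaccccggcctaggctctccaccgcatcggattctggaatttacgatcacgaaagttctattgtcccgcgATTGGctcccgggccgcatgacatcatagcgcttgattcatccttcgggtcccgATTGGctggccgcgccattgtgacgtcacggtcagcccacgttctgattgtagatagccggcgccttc
CCAAT boxes bind the factor NF-Y, a known partner of the sterol regulatory element binding proteins, and SCD and ELOVL5 hold 2 of them each in this window, against 1 in ACSL3. RefSeq promoters matched 9 of the 10 members, all but FASN. A CCAAT box on either strand lay within 250 bases of a start in 6 of the 9 (ACLY, ACACA, SCD, ELOVL1, ELOVL5 and ACSL3), compared with 37% of 27305 genes. The GC box GGGCGG, searched on both strands and not marked, was found in 8 of 9, all but ELOVL5, against 46.2% of genes. The E-box was found in ELOVL5 alone of the 9, against 7.73%. The sterol regulatory element TCACNCCAC and the LXR element DR4 were found in 0 of 9, and in 1.09% and 0.0183% of genes. Such a match describes letters in a window, and its absence says nothing of the factor.

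With SIRT1 knocked down, 4 of the 10 genes fell and 0 rose. The fallen genes were FASN, SCD, FADS2 and ACSL3, at 0.84 to 0.71 of the control level on the fitted scale. Among all 13885 genes tested, 6.19% were called lower, 6.55% higher and 12.7% called in either direction. These counts are from limma on log2(value + 1), with the mean of sh1 and sh3 set against control and an adjusted p under 0.05 over all genes. The median log2 difference of the 10 members was -0.20, compared with -0.0022 over all genes tested. The members were chosen with earlier results of these data known, so such comparisons with all genes are a description and not independent support. In 6 members (ACLY, FASN, SCD, FADS2, ELOVL1 and ACSL3) all 6 knockdown libraries lay below both controls, as did 11.4% of all genes tested. Of the members 7 had an unadjusted p under 0.05, each of them with a negative difference, where 14.2% of all genes tested had such a p with a negative difference and 14.4% with a positive one. The controls number 2, and with either left out 2 members stayed called: FASN and SCD without control A, SCD and FADS2 without control C.

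**Figure D1:**
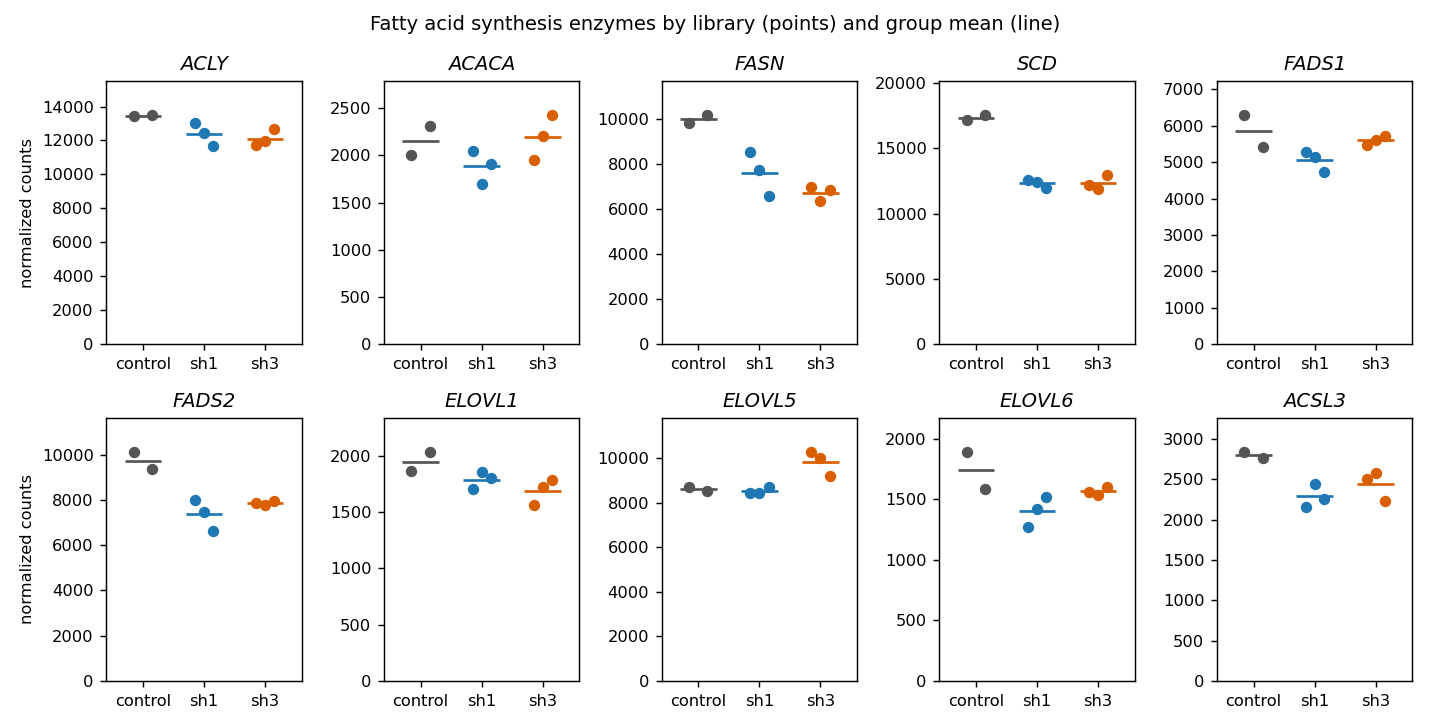
Normalized counts (y axis, from 0) of each of the 10 genes in every library, by group (x axis: control, sh1, sh3), with a line at the group mean. For SCD the 6 knockdown libraries sit between 11888 and 12948, below the controls at 17177 and 17539, while for ACACA both hairpin groups overlap the controls and for FADS1 the sh3 group does.

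Of the 3 synthesis enzymes FASN was called lower, and ACLY and ACACA were not called. ACLY (chromosome 17, 41866908 to 41930542, GRCh38) was at 13022, 12451 and 11669 normalized counts with sh1 and at 11709, 11968 and 12649 with sh3. The controls were at 13452 and 13479. All hairpin libraries were below the controls, but by little: the log2 difference was -0.14 ± 0.048 (SE) for the mean of the hairpins, with an adjusted p of 0.083 in limma, and ACLY was not called. Without sh1 A it was (-0.16, adjusted p = 0.036).

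ACACA (chromosome 17, 37084988 to 37406818), the rate-limiting carboxylase, showed no call in any comparison. Its values were 2048, 1698 and 1905 with sh1, 1954, 2208 and 2425 with sh3, and 2000.4 and 2309 in the controls, so that both hairpin groups overlapped the controls. The log2 difference for the mean of the hairpins was -0.085, with a 95% interval from -0.28 to 0.12.

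FASN (chromosome 17, 82078333 to 82098332), the multifunctional synthase that releases palmitate, fell with each hairpin. It stood at 8513, 7715 and 6593 normalized counts with sh1, at 6980.2, 6345 and 6842 with sh3, and at 9802 and 10151 in the controls. No hairpin library reached the lower control, and the sh1 libraries were spread more widely (SD 964, n = 3) than those of sh3 (SD 334, n = 3). Group means were lower by 23.8% with sh1 and 32.6% with sh3. The log2 change was -0.40 ± 0.087 with sh1 (SE, limma adjusted p = 0.023) and -0.57 ± 0.087 with sh3 (adjusted p = 0.0013). The sh1 call ended without sh1 B (-0.41, adjusted p = 0.057), control A (-0.42, adjusted p = 0.086) or control C (-0.37, adjusted p = 0.16). The call for the mean of the hairpins, -0.48 ± 0.078 (adjusted p = 0.0031), ended without control C (-0.46, adjusted p = 0.056).

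Among the desaturases, SCD fell by nearly equal amounts with both hairpins. SCD (chromosome 10, 100347124 to 100364834), which makes oleate and palmitoleate, was at 12569.7, 12413 and 11988 normalized counts with sh1, 12172, 11888 and 12948 with sh3, and 17177 and 17539 in the controls. The hairpin groups lay on top of each other and far below the controls. The mean was lower by 29% with sh1 and 28.9% with sh3. Averaged over the hairpins, the log2 change was -0.49 ± 0.043 (SE), with an adjusted p of 6.5e-05 in limma. For the mean of the hairpins SCD was called under all alternatives tried and with any 1 library left out, at -0.51 to -0.48. Between sh1 and sh3 it differed by -0.00084, with a 95% interval from -0.095 to 0.093.

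FADS2 (chromosome 11, 61792980 to 61867354), the delta-6 desaturase that opens the polyunsaturated pathway, fell as well. It was at 7993, 7474 and 6651 normalized counts with sh1, 7866, 7776 and 7969 with sh3, and 10122 and 9355 in the controls, and the groups of hairpin and control libraries did not overlap. The log2 change was -0.40 ± 0.069 with sh1 (SE, limma adjusted p = 0.0076) and -0.31 ± 0.069 with sh3 (adjusted p = 0.011). The calls ended without control A, at -0.35 (adjusted p = 0.066) with sh1, -0.25 (adjusted p = 0.088) with sh3 and -0.30 (adjusted p = 0.055) for the mean of the hairpins.

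FADS1 (chromosome 11, 61799625 to 61829318), the delta-5 desaturase whose annotated interval lies within that of FADS2 on the opposite strand, was not called. It was at 5286, 5149 and 4733 with sh1, 5478, 5607 and 5715 with sh3, and 6286 and 5406 in the controls. All sh1 libraries were below the controls, as in 18.9% of all genes tested, and below all sh3 libraries, while sh3 lay between the controls. The log2 difference was -0.21 ± 0.068 with sh1 (SE, adjusted p = 0.10) and -0.058 ± 0.068 with sh3 (adjusted p = 0.61). Annotated exons of FADS1 overlap exons of FADS2, and exons of FADS2 also overlap FEN1, a flap endonuclease gene of DNA replication. The sources used here do not say if strand entered the authors' counting, although the libraries were strand-specific, so reads could be shared between FADS1 and FADS2. Reads could also be shared between FADS2 and FEN1, and whether strand would separate those was not examined. The values of FADS1 and FADS2 are uncertain to that extent. FEN1 itself had a log2 difference of -0.029 ± 0.044 for the mean of the hairpins (SE, adjusted p = 0.72) and of 0.19 ± 0.044 between sh1 and sh3 (adjusted p = 0.018).

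Of the 3 elongases ELOVL5 was called higher with sh3, and ELOVL1 and ELOVL6 were not called. ELOVL5 (chromosome 6, 53267398 to 53349179), which elongates polyunsaturated chains, was at 8425, 8458 and 8723 normalized counts with sh1, 10275, 10000.3 and 9212 with sh3, and 8690 and 8533 in the controls (8689.9 before rounding). The sh1 libraries overlapped the controls and all 3 sh3 libraries lay above them, as in 24.8% of all genes tested. With sh3 the log2 change was 0.19 ± 0.052 (SE, limma adjusted p = 0.028), a 14.1% higher mean, and with sh1 the difference was -0.013 ± 0.052 (adjusted p = 0.92). ELOVL5 was the 1 member called higher in any comparison with control, where 9.36% of all genes tested were called higher with sh3. The sh3 call was lost without sh3 A (0.16, adjusted p = 0.10), sh3 B (0.18, adjusted p = 0.093), control A (0.20, adjusted p = 0.079) or control C (0.18, adjusted p = 0.16).

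ELOVL6 (chromosome 4, 110045846 to 110199199), which takes palmitate to stearate, was at 1270.2, 1416 and 1522 with sh1, 1563, 1536 and 1599 with sh3, and 1889 and 1588 in the controls. The controls were far apart, and sh3 C lay above control C. The log2 difference was -0.31 ± 0.089 with sh1 (SE, adjusted p = 0.066) and -0.15 ± 0.089 with sh3 (adjusted p = 0.29), so ELOVL6 was not called, although without sh1 C it was with sh1 (-0.37, adjusted p = 0.045) and for the mean of the hairpins (-0.26, adjusted p = 0.048).

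ELOVL1 (chromosome 1, 43363397 to 43368074), the elongase of very long saturated chains, was at 1709, 1855 and 1801 with sh1, 1566, 1728 and 1783 with sh3, and 1866 and 2036 in the controls. All hairpin libraries were below both controls, the highest of them narrowly (1855 against 1866). The log2 difference for the mean of the hairpins was -0.17 ± 0.065 (SE), with an adjusted p of 0.12 in limma.

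ACSL3 (chromosome 2, 222860934 to 222944639), the acyl-CoA synthetase of lipid droplets, was at 2163, 2448 and 2253 normalized counts with sh1, 2509, 2580.1 and 2231 with sh3, and 2839 and 2771 in the controls. The hairpin libraries lay below both controls. Averaged over the hairpins the log2 change was -0.25 ± 0.066 (SE, adjusted p = 0.030 in limma), and it was -0.30 ± 0.074 with sh1 (adjusted p = 0.038), and with sh3 the difference was -0.20 ± 0.074 (adjusted p = 0.078). The call for the mean was lost when control A (-0.23, adjusted p = 0.15) or control C (-0.27, adjusted p = 0.16) was left out. The sh1 call also ended without sh1 A (adjusted p = 0.079), sh1 C (adjusted p = 0.076) or sh3 A (adjusted p = 0.056), and when either control was omitted (adjusted p = 0.16 each).

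**Figure D2:**
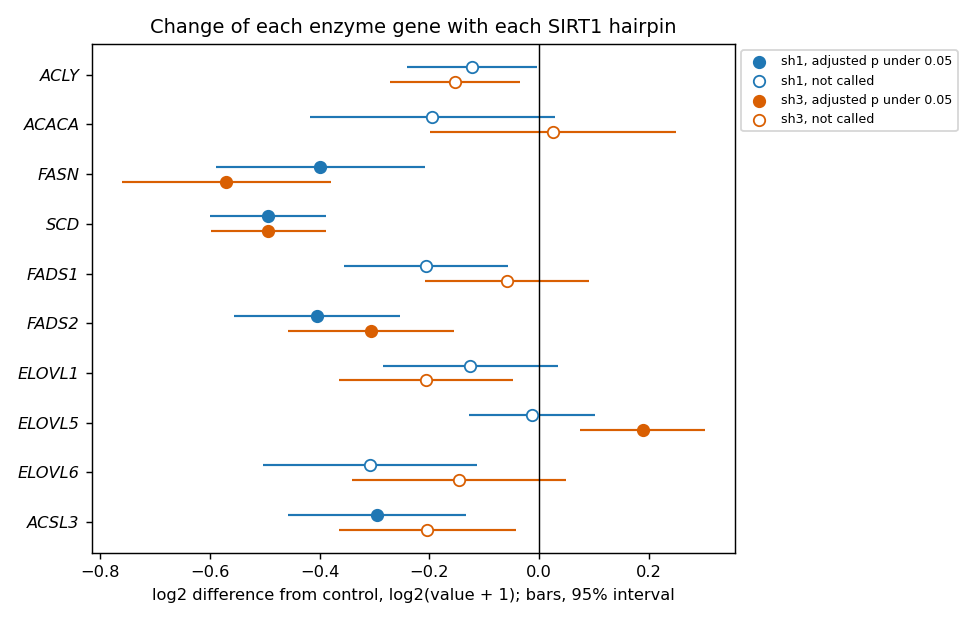
Log2 difference from control (x axis, on log2(value + 1)) of each gene with sh1 (blue) and sh3 (orange), with 95% intervals and filled points at an adjusted p under 0.05. SCD sits at -0.49 with both hairpins, and ELOVL5 is the filled point to the right of 0, at 0.19 with sh3.

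The comparison of each hairpin with control alone called FASN, SCD, FADS2 and ACSL3 lower with sh1, 4 of 10 with 0 higher, against 3.43% of all genes tested called lower, 2.88% higher and 6.31% in either direction. With sh3 it called FASN, SCD and FADS2 lower, 3 of 10 against 9.19%, and ELOVL5 higher, 1 of 10 against 9.36%. Of all genes tested 18.6% were called in either direction with sh3. Both comparisons share the same 2 controls. The hairpins were then compared with each other to see where their changes differ. There 1 of the 10 members was called, ELOVL5, lower with sh1 than with sh3 by 0.20 ± 0.047 on the log2 scale (SE, limma adjusted p = 0.017), while 5.83% of all genes tested were called lower with sh1, 5.61% higher and 11.4% in either direction. For FADS1 and ELOVL6 the sh1 libraries also lay wholly below the sh3 libraries, as in 15.2% of all genes tested, with differences of -0.15 ± 0.061 (SE, adjusted p = 0.15) and -0.16 ± 0.080 (adjusted p = 0.23). ACACA differed by -0.22, with a 95% interval from -0.42 to -0.020 (adjusted p = 0.15). FASN differed in the other direction by 0.17 ± 0.078 (adjusted p = 0.19), and without sh1 C by 0.27 (adjusted p = 0.017). SREBF1 did not pass either (-0.17 ± 0.072, adjusted p = 0.15). The ELOVL5 call was lost without sh1 B (-0.20, adjusted p = 0.062), sh3 A (-0.17, adjusted p = 0.080) or sh3 B (-0.19, adjusted p = 0.074).

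Levels were compared between genes per kilobase of the longest coding transcript in GENCODE 29. In the controls SCD stood highest at 3237 ± 47.8 normalized counts per kilobase (SD, n = 2), ahead of ACLY at 3103 ± 4.43 and ELOVL5 at 2795 ± 36.1. FADS2 followed at 2683 ± 149, and its range of 2577 to 2788 overlapped that of ELOVL5 (2769 to 2820.5). FADS1 (1292 ± 137), ELOVL1 (1201 ± 73.7) and FASN (1165 ± 28.8) formed a middle group whose neighbours overlapped. ACSL3 was at 494 ± 8.55, and ELOVL6 (269 ± 33) and ACACA (216 ± 21.9) were lowest, with ranges of 246 to 293 and 201 to 232 that did not overlap. The order changed with the hairpins: SCD was at 2298 ± 56.2 under sh1 and 2301 ± 102 under sh3 (SD, n = 3 each), below ACLY (2853 ± 157 and 2791 ± 112) and ELOVL5 (2770.3 ± 53.1 and 3190.2 ± 179). Per kilobase of all annotated exons the controls put SCD, ACLY and ELOVL5 highest too, while FADS2 was at 883 ± 49.2, below FASN at 1065 ± 26.3. The sources used here do not say which transcripts these cells use.

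**Figure D3:**
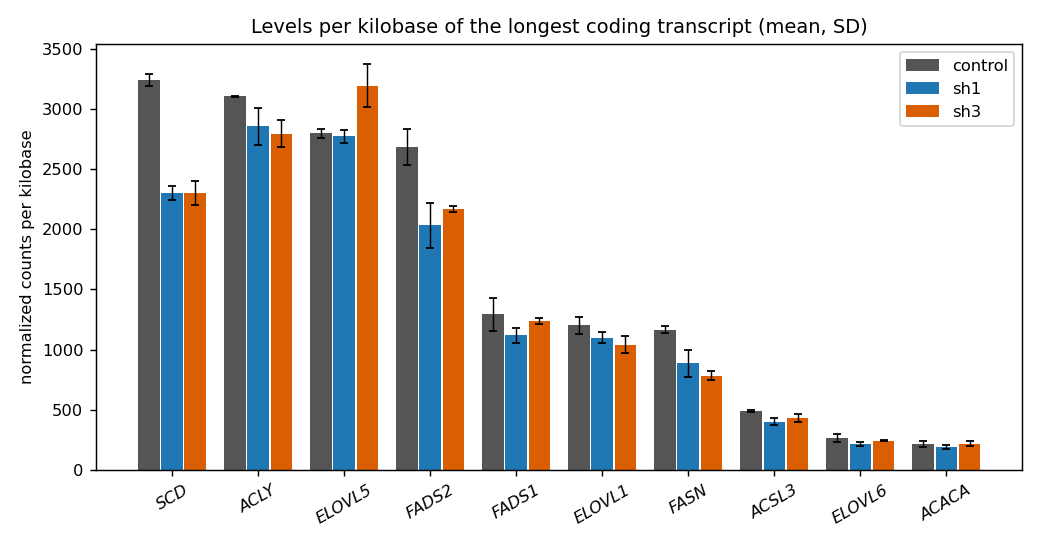
Normalized counts per kilobase (y axis, from 0; bars are group means, error bars SD, n = 2 controls and 3 libraries per hairpin) for the 10 genes ordered by their control level. SCD leads in the controls at 3237 and lies below ACLY and ELOVL5 in both hairpin groups.

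Ratios within a library do not depend on how libraries were scaled. The pairs were chosen after the values were seen, with genes that differed more from control set against genes that differed less, so they are a description and carry no test. SCD stood to ACLY at 1.28 and 1.30 in the controls, 0.965 to 1.03 with sh1 and 0.993 to 1.04 with sh3. FASN to ACLY was 0.729 and 0.753 in the controls, 0.565 to 0.654 with sh1 and 0.530 to 0.596 with sh3. FADS2 to FADS1 was 1.61 and 1.73 in the controls, 1.41 to 1.51 with sh1 and 1.39 to 1.44 with sh3. In none of these 3 ratios did a hairpin library reach the lower control. For FASN to ACACA the sh1 libraries overlapped the controls, while the sh3 libraries lay below both. The controls were at 4.90 and 4.40, sh1 at 4.16, 4.54 and 3.46, and sh3 at 3.57, 2.87 and 2.82. The ratio of ELOVL5 to ELOVL6 lay on the other side, at 4.60 and 5.37 in the controls and 5.73 to 6.63 in the 6 hairpin libraries. SREBF1 to SREBF2 was 0.371 and 0.337 in the controls and 0.216 to 0.270 in the hairpin libraries.

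**Figure D4:**
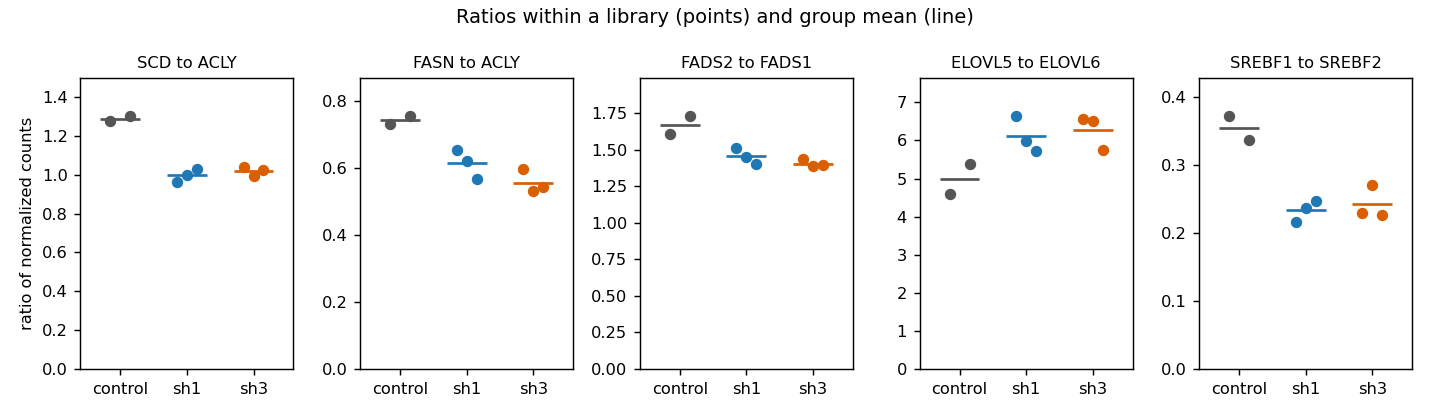
Ratio of normalized counts of 2 genes within each library (y axis, from 0; points) by group, with a line at the group mean. SCD to ACLY averages 1.29 in the controls, 0.997 with sh1 and 1.02 with sh3, and ELOVL5 to ELOVL6 is the ratio that is higher with the hairpins.

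Of the transcription factors and regulators of SREBP processing, SREBF1 was called for the mean of the hairpins and with each hairpin. SREBF1 (chromosome 17, 17810399 to 17837002), the factor best known for driving lipogenic genes, was at 1611, 1711 and 1601 normalized counts with sh1, 1731, 2036 and 1790.3 with sh3, and 2855 and 2530 in the controls (2529.5 before rounding). Every hairpin library was below both controls, and the log2 change was -0.63 ± 0.072 (SE, limma adjusted p = 0.00039), larger in size than that of any member for the mean of the hairpins. With sh3 FASN changed by more than SREBF1, -0.57 against -0.54. It stayed called with any 1 library left out. Its exons overlap RAI1, so its value carries the same doubt about strand. SREBF2, which drives cholesterol genes, was at 7604 ± 127 in the controls (SD, n = 2), 7045 ± 510.0 under sh1 and 7672 ± 205 under sh3 (SD, n = 3 each), a log2 difference of -0.050 ± 0.053 (SE, adjusted p = 0.59). Over all genes tested 6.19% were called lower and 6.55% higher for the mean of the hairpins. In the list of 17 transcription factors and regulators of SREBP processing 1 gene was lower and 0 were higher for that mean, with a median of -0.049. The other genes of that list, among them the escort protein gene SCAP (-0.049), its retention factor INSIG1 (-0.17) and the LXR gene NR1H2 (0.048), did not pass the test for that mean. With sh3 a second gene of the list was lower: ERLIN1, which acts in the degradation of endoplasmic reticulum proteins, named after its values were seen, changed by -0.34 ± 0.059 (SE, adjusted p = 0.0031). It was at -0.0017 with sh1 (adjusted p = 0.99) and differed between the hairpins by 0.34 ± 0.053 (adjusted p = 0.0019). Of 9 tested LXR targets 2 were lower, SREBF1 and SCD themselves, and 1 was higher.

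The cholesterol synthesis and uptake genes, which share SREBP control, were listed with earlier results of these data known. Over all genes tested 6.19% were called lower and 6.55% higher for the mean of the hairpins. Of the 22 cholesterol genes tested 17 fell for that mean, with 0 higher and a median of -0.35. The count was 13 without control A and 6 without control C. DHCR7, the last reductase of the pathway, was at 2511 ± 160 in the control libraries (SD, n = 2), 1707 ± 55.9 under sh1 and 1522 ± 164 under sh3 (SD, n = 3 each), in normalized counts. Its log2 change was -0.64 ± 0.075 (SE), with an adjusted p of 0.00045 in limma. By hairpin, 10 genes of the list were lower and 0 higher with sh1 (median -0.27), against 3.43% and 2.88% of all genes tested. With sh3 18 were lower and 1 higher (median -0.43), against 9.19% and 9.36% of all genes tested. Between the hairpins 5 genes were called higher with sh1 than with sh3 and 1 lower, against 5.61% and 5.83% of all genes tested.

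The supply of carbon and reducing power held 3 falls and 1 rise among 21 genes tested, with a median of -0.030. By comparison, 6.19% of all genes tested were called lower and 6.55% higher. Among the falls, PGD, an NADPH-making enzyme of the pentose phosphate route, changed by -0.25 (adjusted p = 0.0059), and SLC25A1, the mitochondrial citrate carrier that feeds ACLY, by -0.18 (adjusted p = 0.024). The rise was in NNT, the mitochondrial transhydrogenase (0.16, adjusted p = 0.028), named after its value was seen. NNT was called with sh1 (0.28, limma adjusted p = 0.0072) and not with sh3 (0.044, adjusted p = 0.55). The hairpins differed by 0.23 (adjusted p = 0.0042). Its call for the mean of the hairpins ended without sh1 B (adjusted p = 0.052), sh3 B (adjusted p = 0.065), or either control (0.15 without control A and 0.17 without control C). For the mean of the hairpins, PGD (-0.22) and SLC25A1 (-0.13) were no longer called without control C. SLC25A1 was not called either without sh1 B (adjusted p = 0.053) or sh3 A (adjusted p = 0.055). Among 13 genes that act on acetyl-CoA carboxylase, PRKAA1, a catalytic subunit of the inhibitory kinase AMPK, and BRCA1, which binds the phosphorylated carboxylase, rose by 0.18 and 0.21 (adjusted p = 0.033 and 0.029). Without control C they were at 0.12 (adjusted p = 0.34) and 0.27 (adjusted p = 0.079). The call of BRCA1 also ended without control A (0.15, adjusted p = 0.22) or sh3 B (0.21, adjusted p = 0.056), and that of PRKAA1 without sh1 B (adjusted p = 0.064), sh3 A (adjusted p = 0.071) or sh3 C (adjusted p = 0.055). MID1IP1, which promotes polymerization of the carboxylase, was named after its values were seen: it fell with sh1 (-0.33, adjusted p = 0.0036), was at 0.042 with sh3 (adjusted p = 0.61), and differed between the hairpins by -0.37 (adjusted p = 0.00027).

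Of 9 other desaturases and electron donors tested 2 were lower and 0 higher for the mean of the hairpins, with a median of -0.11. By comparison, 6.19% of all genes tested were called lower and 6.55% higher. SCD5, the second stearoyl-CoA desaturase, was at 974 ± 32.4 in the controls (SD, n = 2), 980.1 ± 34.7 under sh1 and 675 ± 19.5 under sh3 (SD, n = 3 each). DEGS1, the dihydroceramide desaturase, was at 1692 ± 127, 1571 ± 34.1 and 1196 ± 57.7. Both fell with sh3 (-0.53 and -0.50, adjusted p = 0.00063 and 0.00077) and differed between the hairpins (0.54 and 0.39, adjusted p = 0.00028 and 0.0019). For the mean of the hairpins SCD5 (-0.26, adjusted p = 0.023) was at -0.23 (adjusted p = 0.15) without control A and -0.29 (adjusted p = 0.11) without control C, and DEGS1 (-0.30, adjusted p = 0.010) at -0.23 (adjusted p = 0.16) without control C. Of 8 other genes of the elongation cycle 1 rose, ELOVL4, an elongase of very long chains (0.24, adjusted p = 0.021; with control A or control C left out, adjusted p = 0.14 and 0.10). The list median was 0.056.

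The remaining lists held few calls, where 6.19% of all genes tested were called lower and 6.55% higher for the mean of the hairpins. Of 22 other acyl-CoA synthetases and carriers 2 were lower and 1 higher, with a median of -0.099. The acyl-CoA binding protein gene DBI changed by -0.37 (adjusted p = 0.014), the fatty acid transport protein gene SLC27A3 by -0.57 (adjusted p = 0.017) and the thioesterase gene ACOT13 by 0.37 (adjusted p = 0.020). Other members of the ACSL family were not called: ACSL4 (-0.0030, adjusted p = 0.98), ACSL5 (0.029, adjusted p = 0.79) and ACSL1 (-0.17, adjusted p = 0.65). For the mean of the hairpins, DBI (-0.28), SLC27A3 (-0.51) and ACOT13 (0.28) were not called without control C, nor was SLC27A3 without control A (-0.64). Fatty acid oxidation genes were lower in 3 of 25 cases and higher in 0, with a median of -0.051: HSD17B4 of peroxisomes (-0.17, adjusted p = 0.019), the acyl-CoA dehydrogenase gene ACADVL (-0.14, adjusted p = 0.033) and the carnitine carrier gene SLC25A20 (-0.24, adjusted p = 0.050, below the threshold before rounding). HSD17B4 and ACADVL were called with sh1 (-0.24 and -0.20, adjusted p = 0.013 and 0.021) and not with sh3 (-0.10 and -0.084, adjusted p = 0.14 and 0.20). SLC25A20 was called with neither (adjusted p = 0.075 with sh1 and 0.091 with sh3). For the mean of the hairpins all 3 lost the call when either control was left out, at -0.26 to -0.14. ACADVL also lost it without sh1 B (adjusted p = 0.051), sh3 A (adjusted p = 0.072) or sh3 C (adjusted p = 0.052), and SLC25A20 without each library of either hairpin but sh3 C (adjusted p from 0.051 to 0.089). CPT1A, the entry step of mitochondrial oxidation, was at -0.12 (adjusted p = 0.29). Glycerolipid synthesis held 1 fall, MBOAT7 (-0.27, adjusted p = 0.025), and 1 rise, MBOAT2 (0.18, adjusted p = 0.043), among 21 genes, both acyltransferases of phospholipids. Mitochondrial fatty acid synthesis held 1 rise among 11, its ketoacyl synthase gene OXSM (0.23, adjusted p = 0.048). With either control left out MBOAT7, MBOAT2 and OXSM were not called (adjusted p from 0.13 to 0.22). MBOAT7 was not called either without sh3 A (adjusted p = 0.052). MBOAT2 and OXSM also lost the call without sh1 A, sh1 C, sh3 A or sh3 B, and OXSM without sh1 B (adjusted p from 0.051 to 0.094). The naming rule took 22 genes outside the 10. Of these, 10 stayed called when the variance prior did not follow the mean, with DBI, ACOT13, ELOVL4 and HSD17B4 among those lost. With the letter as a block 14 stayed called. Of the 22 genes outside the 10 that the naming rule took, 12 stayed called without control A and 4 without control C (SREBF1 and DHCR7 among them), all with the same sign.

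**Figure D5:**
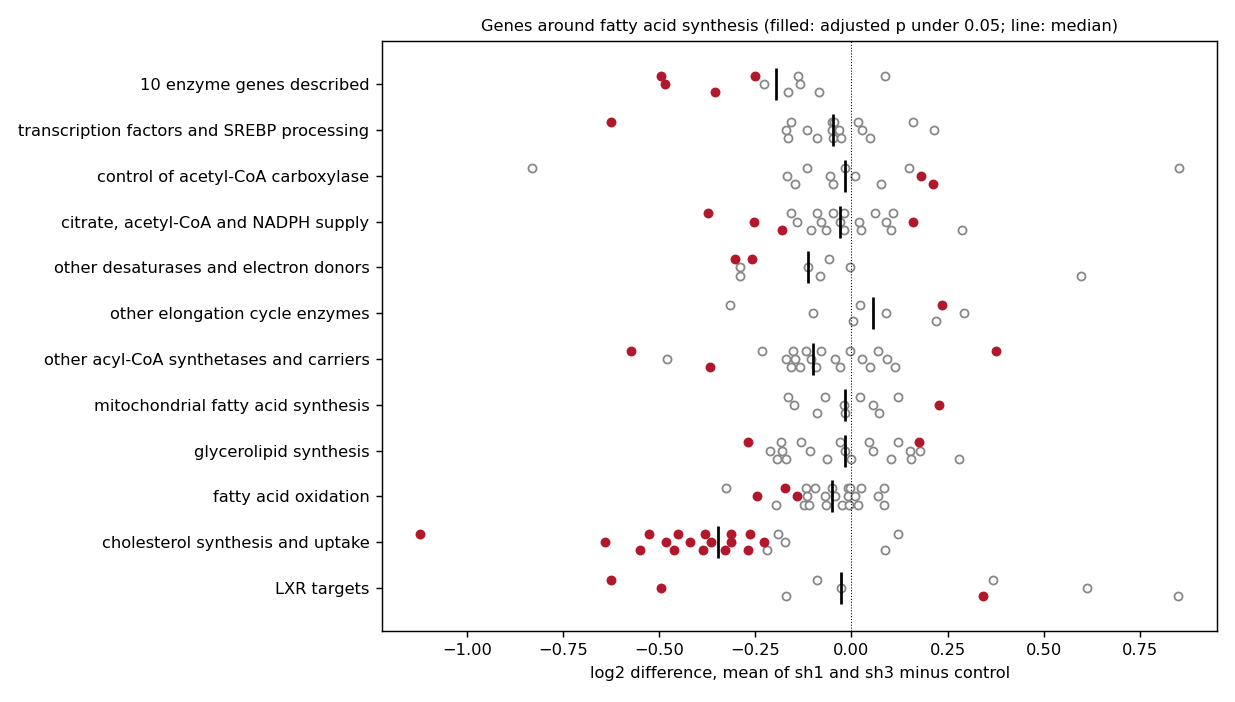
Log2 difference between knockdown and control (x axis) of each tested gene in the 10 enzymes and in 11 lists around them (rows), filled at an adjusted p under 0.05, with a line at each median. The cholesterol list has 17 filled points to the left of 0 and a median of -0.35, the 10 enzymes a median of -0.20, and the other lists medians between -0.11 and 0.056.

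The members were not equally alike across the 8 libraries. FADS2 and SCD followed the mean of the other members most closely (Pearson r = 0.94 and 0.90 on standardised log2 values, n = 8), and ELOVL5 ran against it (r = -0.26). Outside the pathway, the genes most like the mean of the 10 were HRH2, a histamine receptor gene (r = 0.99), RIMS3 (0.99), TTLL12 (0.98), TNFSF8, which encodes the ligand of CD30 (0.98), and UBASH3A, a regulator of T-cell receptor signalling (0.98), among 10575 genes with a mean of at least 100. HRH2 averaged 604 ± 4.86 in the control libraries (SD, n = 2), 359 ± 27.4 under sh1 and 432 ± 20.6 under sh3 (SD, n = 3 each). These coefficients describe libraries that fall into 3 groups and share their scaling.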

How the data were processed

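Strand-specific libraries of total RNA from DND41 cells were sequenced, per the labels' protocols. The authors deposited 1 signal value for each gene symbol and library, a normalized count. Kallisto 0.44.0, DESeq and hg38 are named in the submitters' processing notes. Which annotation was used, how transcripts were combined and whether genes were filtered is not stated there. Since the values are not whole, no count test was used. The 13885 of 18133 genes whose mean across 8 libraries reached 10 were fitted as log2(value + 1), which understates changes of low genes, with limma 3.58.1 in R 4.3.3. The fit held 3 group means, a variance prior that followed the mean and 5 residual degrees of freedom. Tests were two-sided and adjusted by the Benjamini-Hochberg method over all genes tested. The procedure was tested on simulated data with the same dispersion for every gene, which does not show how far the calls reported here hold.

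The members and gene lists were chosen with earlier results of these data known. Named were all members, SIRT1, the 3 called genes with the smallest p in each list, and the 5 genes most like the members' mean. Some genes that the rule takes are counted but not reported by name here. A gene outside this rule is named as a family member or pathway regulator, or marked as chosen after its value was seen. Alternatives were pseudocounts of 0.5 and 10, no filter or a minimum mean of 50, libraries rescaled to equal medians, no trend in the variance prior, the letter as a block, and each library left out. Coordinates are from GENCODE 29 for GRCh38 (another name for hg38), and promoters are from RefSeq.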

Additional observations from a re-analysis of the deposited data

Results flagged for a closer look

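ELOVL5 differed between the hairpins: its change against the shared controls was lower with sh1 than with sh3 by -0.20 ± 0.047 on the log2 scale (SE, limma adjusted p = 0.017, sh1 minus sh3), and all 3 sh3 libraries were above all 3 sh1 libraries. It was picked out because the difference between the hairpins was itself tested and passed. Of all genes tested 11.4% were called between the hairpins, and in 15.2% the sh1 libraries lay wholly below the sh3 libraries. The ELOVL5 call was lost without sh1 B (limma adjusted p = 0.062), sh3 A (adjusted p = 0.080) or sh3 B (adjusted p = 0.074). It was also lost without the trend in the variance prior (adjusted p = 0.076).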

How the results depend on the processing

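The count of members called in the knockdown was 4 under each alternative pseudocount, filter and scaling, the same 4 genes each time, and 3 without a trend in the variance prior. It ranged from 2 to 5 when a library was left out. With sh1 the 4 calls became 1 without the trend and ranged from 1 to 4 without a library. With sh3 they became 2 without the trend and ranged from 2 to 5. Between sh1 and sh3 the 1 call became 0 without the trend and ranged from 0 to 2. The cause of these shifts was not tested, except that a lone control leaves fewer samples and is assumed to vary like the other groups. Over 600 values of members under alternatives, 29 lost a call, 8 gained one and 8 changed sign, and 0 of these sign changes involved a called value. Same-letter libraries did not deviate together (r from -0.062 to 0.058). With the letter as a replicate block 4 members were called in the knockdown, 4 with sh1, 5 with sh3 (ELOVL1 and ACSL3 gained, ELOVL5 lost) and 1 between the hairpins. Over all genes, 1768 were called in the knockdown, 744 without the trend, 953 without control A and 339 without control C. The 2 controls limit the precision; the lowest value of any member in any library was 1270.2 normalized counts.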
